A study of Homo sapiens with 8 samples.

Results

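The genes described here were 40 antioxidant genes of the NRF2, glutathione and thioredoxin systems, taken from a list of gene symbols. All 40 symbols were found among the 61125 genes listed for U-937 cells. BACH1 shared its row with a second symbol, and its Ensembl identifier matched BACH1 in the gene table. Of the 40, 38 had enough reads to be tested among 14995 genes. U-937 is a human pro-monocytic leukemia cell line, and its RNA was sequenced after 72 h of treatment. The 4 groups had 2 libraries each and were LAA+ATRA (250 µM L-ascorbic acid with 1 µM all-trans retinoic acid), ATRA (1 µM), LAA (250 µM) and vehicle (PBS with DMSO). L-ascorbic acid is vitamin C, a reducing agent that in culture medium can also generate hydrogen peroxide, and retinoic acid drives myeloid cells to differentiate. The comparisons ask what ATRA, LAA and the pair did to these genes, and whether the effect of the pair differed from the sum of the single effects.

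NRF2, the product of NFE2L2, is a transcription factor that KEAP1 holds in check by marking it for degradation. Oxidants and electrophiles modify KEAP1, and NRF2 then accumulates, pairs with a small MAF protein such as MAFG and binds antioxidant response elements, sites that BACH1 can occupy as a repressor. Much of this control acts on the NRF2 protein, which RNA-sequencing does not measure. Among the target genes are enzymes that make glutathione, enzymes that use it to reduce peroxides or to conjugate toxins, and the thioredoxin enzymes that keep peroxiredoxins active. In myeloid cells these systems also handle the oxidants that the NADPH oxidase makes after differentiation.

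Promoter windows from 250 bases before to 50 bases after each annotated start were available for 31 of the 40 genes (RefSeq, build GRCh38.p14). The core of the antioxidant response element was searched as the 9-base motif TGACNNNGC on both strands. It was present in the windows of 8 of these 31 genes (25.8%), against 4384 of 27305 genes in the same table (16.1%). A gene counted if any of its windows matched. The 31 genes had 51 windows and the 27305 genes had 35116, so the 2 shares are not like for like. Matches outside the windows were not searched for. The 8 genes were AIFM2, EPHX1, GCLM, GSTP1, KEAP1, ME1, MGST1 and TXNRD1. The 5 windows below, with the matches in capitals, are shown because their genes covered the range of readouts described in the results. The GCLM window lies at chr1:93909381-93909680 (minus strand), MGST1 at chr12:16346865-16347164 (plus), GSTP1 at chr11:67583562-67583861 (plus), the first TXNRD1 window at chr12:104215529-104215828 (plus) and ME1 at chr6:83431002-83431301 (minus).
GCLM: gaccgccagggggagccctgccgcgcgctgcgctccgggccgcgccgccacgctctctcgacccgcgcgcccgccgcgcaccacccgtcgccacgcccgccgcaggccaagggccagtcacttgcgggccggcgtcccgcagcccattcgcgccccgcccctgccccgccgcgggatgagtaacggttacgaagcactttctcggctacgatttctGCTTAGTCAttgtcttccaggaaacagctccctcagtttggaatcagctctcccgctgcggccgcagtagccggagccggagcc
MGST1: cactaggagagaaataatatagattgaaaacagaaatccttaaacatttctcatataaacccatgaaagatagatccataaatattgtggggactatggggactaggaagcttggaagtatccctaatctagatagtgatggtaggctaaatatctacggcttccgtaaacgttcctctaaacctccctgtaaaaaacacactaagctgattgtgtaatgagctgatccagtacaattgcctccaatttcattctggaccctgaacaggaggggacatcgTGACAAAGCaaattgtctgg
GSTP1: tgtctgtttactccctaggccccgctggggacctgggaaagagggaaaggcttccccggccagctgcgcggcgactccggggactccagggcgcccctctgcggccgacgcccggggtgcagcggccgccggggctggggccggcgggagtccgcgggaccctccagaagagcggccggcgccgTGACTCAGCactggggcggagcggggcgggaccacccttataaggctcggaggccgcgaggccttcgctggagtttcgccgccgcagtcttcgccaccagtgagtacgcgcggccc
TXNRD1: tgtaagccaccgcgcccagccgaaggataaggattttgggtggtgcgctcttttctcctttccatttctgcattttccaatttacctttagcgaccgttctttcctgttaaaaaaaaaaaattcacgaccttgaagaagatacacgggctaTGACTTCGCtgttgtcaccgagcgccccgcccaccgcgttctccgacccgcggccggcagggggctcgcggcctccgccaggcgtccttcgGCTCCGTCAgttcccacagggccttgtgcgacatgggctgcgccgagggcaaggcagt
ME1: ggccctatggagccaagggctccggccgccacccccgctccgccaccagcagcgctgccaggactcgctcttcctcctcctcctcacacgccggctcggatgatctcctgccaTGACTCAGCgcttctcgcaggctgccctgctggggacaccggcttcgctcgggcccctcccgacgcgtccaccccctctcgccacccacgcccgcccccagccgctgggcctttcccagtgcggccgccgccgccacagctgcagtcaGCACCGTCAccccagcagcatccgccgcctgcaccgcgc
Of the 8 genes, 7 were tested, and with ATRA against vehicle none of the 7 was higher, GCLM and MGST1 were lower and 5 passed no test, where 21.9% of all genes were higher and 21% lower. Of the 22 tested genes with a window and no match, 7 were higher and 4 lower. With LAA+ATRA against vehicle GSTP1 was higher and MGST1 lower, against 9 higher and 2 lower of the 22 without a match and 23.1% and 21.5% of all genes. These counts are descriptions with no test between them. HMOX1, GSR, SOD1, PRDX1, ABCC1, MGST2, SLC7A11, PRDX6 and GSS had no window. A match is a description of the letters and not evidence of binding.

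Library totals ran from 18462552 to 24166770 estimated counts, and the 40 genes took 0.528% to 0.629% of a library. Levels are given as CPM, counts scaled by TMM to a common library size, or as FPKM where genes are compared with each other. The line expressed the myeloid markers ELANE, CTSG, AZU1 and SPI1, but MPO lay between 0.157 and 0.838 CPM and CD14 between 0 and 0.42 CPM. The summed level of the 12 myeloid markers was 10963 and 12361 CPM in the LAA+ATRA libraries, 10513 and 10610 in the ATRA libraries, 6105 and 6472 in the LAA libraries and 5704 and 5818 in the vehicle libraries. It moved with ATRA, and its part in the ATRA results was not tested. The T cell markers CD3E and CD3D, the B cell marker MS4A1 and 3 erythroid markers were at 0 in all 8 libraries. The labels do not tell whether replicates came from separate cultures, so the spread behind each p-value is that between these libraries and may be technical. The 2 libraries of a group differed by a median of 0.17 on the log2 scale over the 38 tested genes with LAA+ATRA, 0.15 with ATRA, 0.074 with LAA and 0.1 with vehicle. Over all tested genes it was larger in each group, at 0.2, 0.21, 0.14 and 0.13. Shares of non-overlapping libraries are therefore not like for like between the 38 genes and all genes.

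On the per-length scale the most abundant of the 40 genes in every group was GSTP1, the pi-class glutathione transferase. It averaged 1995 FPKM in LAA+ATRA cells, 1745 in ATRA cells, 1810 in LAA cells and 1612 in vehicle cells. GPX1, the cytosolic glutathione peroxidase, ranked 2 in every group, at 1288 FPKM with LAA+ATRA, 1189 with ATRA, 801 with LAA and 683 with vehicle. GPX4, which reduces lipid peroxides in membranes, ranked 3 and thioredoxin (TXN) ranked 4 in every group. PRDX1 ranked 10 of the 40 genes with LAA+ATRA and 11 with ATRA, but 5 with LAA and 5 with vehicle. At the other end, ME1, the cytosolic malic enzyme that makes NADPH, had 0 counts in all 8 libraries, where 3 counts would be 0.124 to 0.162 CPM. GPX7, a peroxidase of the endoplasmic reticulum, had 21 counts summed over the 8 libraries, too few for a test. AIFM2, which reduces coenzyme Q at membranes, was the lowest tested gene, at 0.388 to 1.66 CPM.

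ATRA raised 10 and lowered 10 of the 38 tested genes (edgeR quasi-likelihood test, Benjamini-Hochberg adjusted p under 0.05). That was 52.6% of them, against 42.9% of all 14995 genes, of which 21.9% were higher and 21% lower. LAA+ATRA against vehicle also called 20, of which 13 were higher and 7 lower, against 44.7% of all genes, 23.1% higher and 21.5% lower. The median log2 fold change of the 38 genes was 0.055 with ATRA and 0.053 with LAA+ATRA, against -0.0036 and 0.012 over all genes. The antioxidant genes moved in both directions, and whether their share of calls differs from that of all genes was not tested. In bulk RNA, a change in the make-up of the culture and a change in RNA per cell cannot be told apart. LAA+ATRA against LAA, the ATRA effect in the presence of LAA, called 9 genes higher and 9 lower, against 36.4% of all genes, 18.4% higher and 18% lower. The 3 comparisons share libraries, so their calls are not independent. Groups whose libraries did not overlap were 27 of the 38 genes with LAA+ATRA against vehicle (71.1%, against 73.8% of all genes), 30 with ATRA against vehicle (78.9%, against 71.9%) and 33 with LAA+ATRA against LAA (86.8%, against 68.8%). On log2(FPKM + 1) with limma, the LAA+ATRA calls of SLC7A11, GSS, GSTP1, ABCC1, TXNRD2 and BLVRB were lost (adjusted p from 0.0553 to 0.705), and KEAP1, GCLM, TXN and NQO1 were called instead (0.0277 to 0.0451). The ATRA calls of SLC7A11, PRDX5 and BLVRA were lost on that scale (0.0502 to 0.0806). Without vehicle replicate 2 the ATRA count was 13, and without vehicle replicate 1 the LAA+ATRA count was 13.

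**Figure D1:**
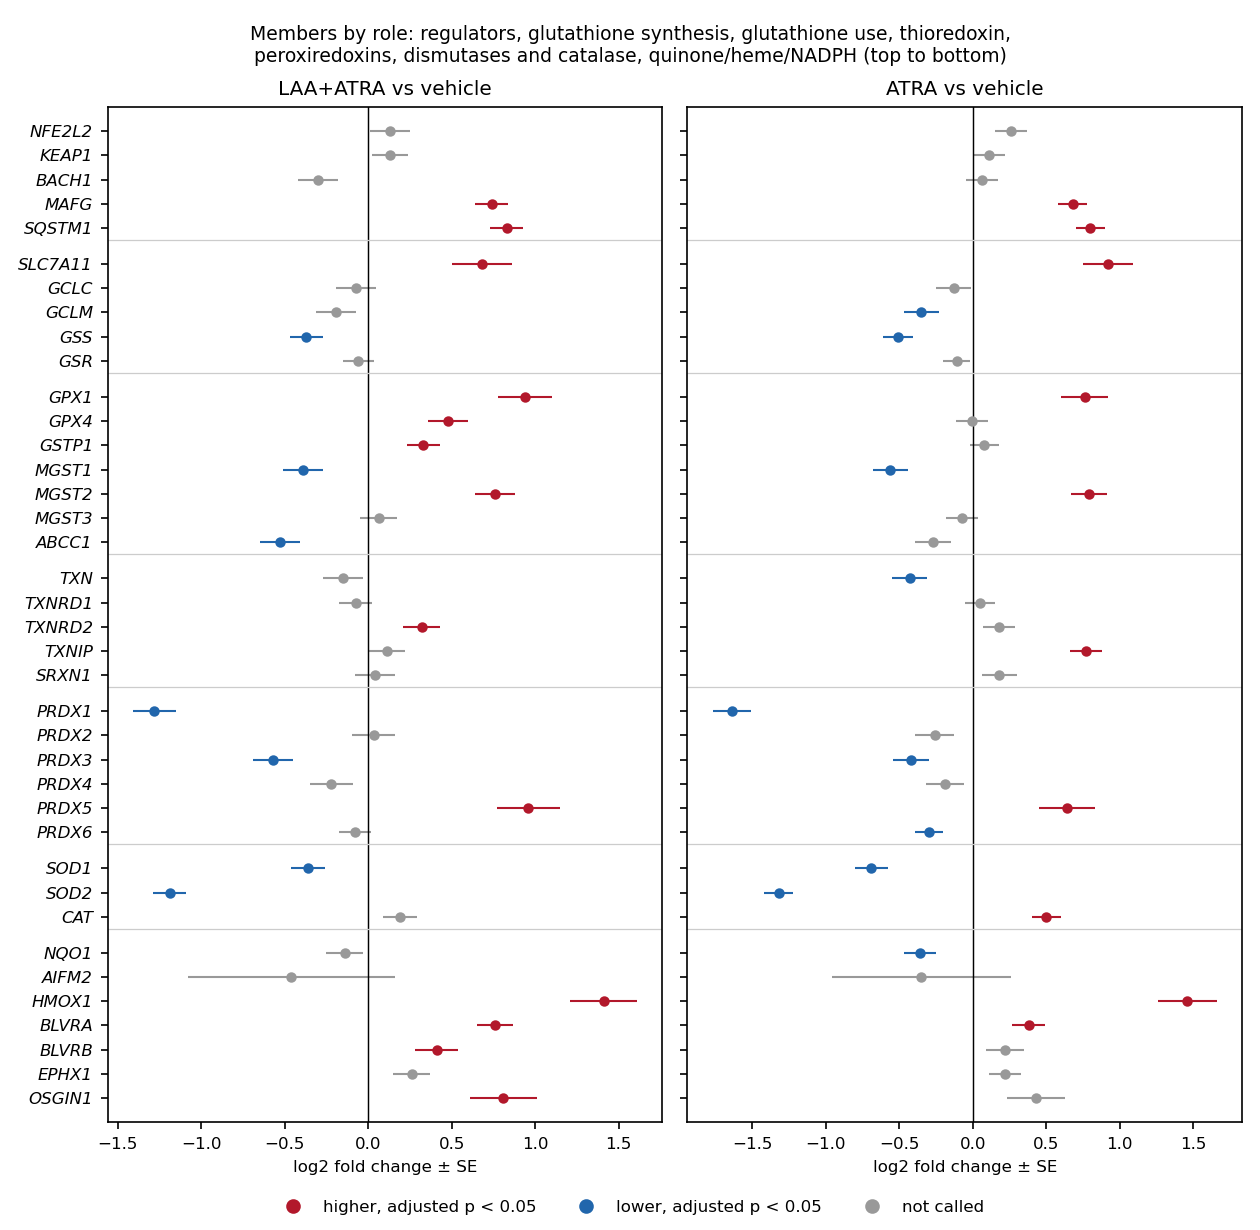
Log2 fold change (x axis) with its standard error for each of the 38 tested genes (y axis, ordered by role), LAA+ATRA against vehicle at left and ATRA against vehicle at right, from the edgeR fit to all 8 libraries. Red and blue points passed an adjusted p of 0.05 and grey points did not. HMOX1 lies farthest right in both panels and PRDX1 farthest left.

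Of the regulators, SQSTM1 and MAFG rose with ATRA, while NFE2L2 and KEAP1 themselves passed no test. NFE2L2 had 62.9 and 77.4 CPM with LAA+ATRA, 74 and 79.8 with ATRA, 56.7 and 60.4 in LAA cells, and 62.1 and 66.5 in vehicle cells. Both ATRA libraries lay above both vehicle libraries, with a log2 fold change of 0.26 ± 0.11 (SE, edgeR adjusted p = 0.0882). Without LAA+ATRA replicate 1 or replicate 2 that p was 0.0421 or 0.0471. KEAP1 lay between 115 and 136 CPM in all 8 libraries, with a log2 fold change of 0.11 ± 0.11 for ATRA against vehicle (edgeR adjusted p = 0.438) and 0.13 ± 0.11 for LAA+ATRA against vehicle (0.337). On log2(FPKM + 1) the KEAP1 value for LAA+ATRA against vehicle was 0.35, with a limma adjusted p of 0.045.

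SQSTM1 encodes p62, an autophagy receptor that binds KEAP1 and can draw it away from NRF2. It had 278 and 270 CPM with LAA+ATRA and 273 and 265 with ATRA, against 178 and 192 with LAA and 148 and 160 with vehicle. The 4 libraries with ATRA all lay above the 4 without it, and the log2 fold change was 0.83 ± 0.1 for LAA+ATRA and 0.8 ± 0.1 for ATRA against vehicle (edgeR adjusted p = 2.57e-05 and 3.08e-05). MAFG, a small MAF partner of NRF2, had 95.9 and 102 CPM with LAA+ATRA, 96.3 and 93.4 with ATRA, 60.6 and 61.3 in LAA cells, and 61.4 and 57 in vehicle cells. Again no library with ATRA overlapped one without it, and the log2 fold change against vehicle was 0.74 ± 0.1 with LAA+ATRA and 0.68 ± 0.1 with ATRA (edgeR adjusted p = 7.09e-05 and 0.000128). BACH1 passed no test with ATRA against vehicle (0.062 ± 0.11, edgeR adjusted p = 0.692) and is described with the LAA comparisons.

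**Figure D2:**
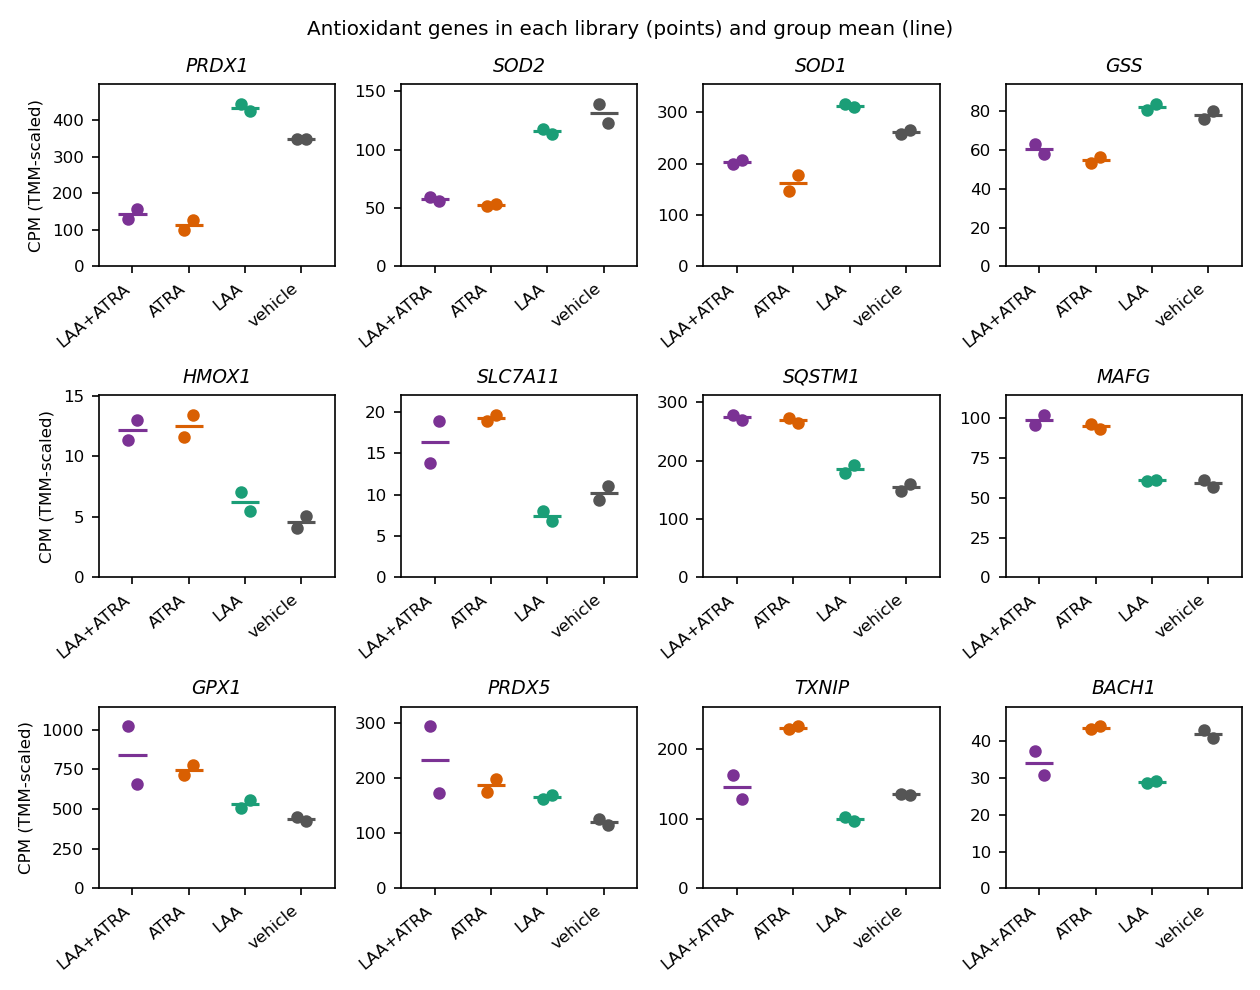
Level in each library (y axis, CPM scaled by TMM, from 0) of 12 of the genes, by group (x axis). Points are the 2 libraries of a group and the line is their mean. In the top row and for HMOX1, SLC7A11, SQSTM1, MAFG, GPX1 and PRDX5 the libraries with ATRA are separate from those without it. For TXNIP and BACH1 they overlap. PRDX1, SOD1, GSS, TXNIP and BACH1 separate by LAA, in the same direction, within each background. SLC7A11 separates by LAA without ATRA. With ATRA its nearest points, LAA+ATRA replicate 2 and ATRA replicate 1, are both 18.9 CPM after rounding.

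Glutathione supply was split. SLC7A11 is the cystine importer that provides cysteine for glutathione, GCLC and GCLM form the glutamate-cysteine ligase of the first step, GSS performs the second step and GSR recycles oxidized glutathione. SLC7A11 had 13.8 and 18.9 CPM with LAA+ATRA, 18.9 and 19.6 with ATRA, 7.98 and 6.82 in LAA cells, and 9.38 and 11 in vehicle cells. It was higher in all 4 ATRA libraries, by a log2 fold change of 0.68 ± 0.18 for LAA+ATRA and 0.92 ± 0.17 for ATRA against vehicle (edgeR adjusted p = 0.00728 and 0.00109). GSS fell, with 63.4 and 57.8 CPM under LAA+ATRA and 53.2 and 56.4 under ATRA, against 80.6 and 83.8 under LAA and 76.3 and 80.2 under vehicle. Its log2 fold change was -0.37 ± 0.1 with LAA+ATRA and -0.51 ± 0.1 with ATRA (edgeR adjusted p = 0.00914 and 0.00121). GCLM, the regulatory subunit, was lower with ATRA alone by -0.35 ± 0.12 (edgeR adjusted p = 0.0355), at 25.1 and 25.5 CPM against 32 and 32.5 with vehicle. GCLC, the catalytic subunit, and GSR passed no test in any comparison, GCLC at 37.4 to 48 CPM and GSR at 167 to 197 CPM. On the FPKM scale the SLC7A11 call was lost (limma adjusted p from 0.0806 to 0.132 with ATRA and from 0.307 to 0.408 with LAA+ATRA), and it was lost with LAA+ATRA without vehicle replicate 1 or LAA+ATRA replicate 2 (edgeR adjusted p = 0.0758 and 0.0873, log2 fold change 0.57 and 0.44). The GCLM call was lost without any 1 of the 4 libraries compared (edgeR adjusted p from 0.0836 to 0.143) and with DESeq2 (0.0754), and the GSS call with LAA+ATRA without vehicle replicate 2 (0.0813) or LAA+ATRA replicate 2 (0.0584).

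Among the genes that use glutathione, GPX1 and MGST2 rose with ATRA and MGST1 fell. GPX1 had 1023 and 659 CPM with LAA+ATRA, 714 and 778 with ATRA, 504 and 557 in LAA cells, and 452 and 427 in vehicle cells. The ATRA libraries all lay above the others, although the 2 LAA+ATRA libraries were far apart, and the log2 fold change against vehicle was 0.94 ± 0.16 with LAA+ATRA and 0.76 ± 0.16 with ATRA (edgeR adjusted p = 0.000572 and 0.00234). Without LAA+ATRA replicate 1 the LAA+ATRA value was 0.59. GPX4 followed another pattern, with 551 and 435 CPM under LAA+ATRA, 367 and 336 under ATRA, 425 and 425 under LAA, and 350 and 356 under vehicle. It was higher with LAA+ATRA against vehicle, by 0.48 ± 0.12 (edgeR adjusted p = 0.00462), or 0.31 without LAA+ATRA replicate 1, and its ATRA and vehicle libraries overlapped. GPX1 made up 60.4% and 55.5% of the summed GPX1, GPX4 and GPX7 FPKM with LAA+ATRA and 61.4% and 65.6% with ATRA, against 49.4% and 51.8% with LAA and 51.2% and 49.5% with vehicle.

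The microsomal glutathione transferases are membrane enzymes that conjugate or reduce with glutathione, and their 3 members diverged. MGST2 had 66.4 and 64.7 CPM with LAA+ATRA, 60.1 and 74.4 with ATRA, 43.7 and 46.9 in LAA cells, and 37 and 40.6 in vehicle cells, a log2 fold change of 0.76 ± 0.12 with LAA+ATRA and 0.79 ± 0.12 with ATRA (edgeR adjusted p = 0.000258 and 0.000175). MGST1 had 103 and 126 CPM with LAA+ATRA and 92.8 and 110 with ATRA, against 166 and 152 with LAA and 150 and 150 with vehicle, so that the 4 ATRA libraries were lowest. It fell by 0.39 ± 0.12 with LAA+ATRA and by 0.56 ± 0.12 with ATRA on the log2 scale (edgeR adjusted p = 0.0214 and 0.00282). MGST3 passed no test and lay between 141 and 183 CPM. Per length, MGST2 held 20.8% and 21.2% of the summed FPKM of the 3 genes with LAA+ATRA and 22.6% and 23.9% with ATRA, against 13.3% and 14.2% with LAA and 12.6% and 13.1% with vehicle. GSTP1 had 984 and 929 CPM with LAA+ATRA, against 725 and 794 with vehicle, a log2 fold change of 0.33 ± 0.1 (edgeR adjusted p = 0.0149). ABCC1, the exporter of glutathione conjugates, had 41.3 and 39.5 CPM with LAA+ATRA against 60.1 and 56.9 with vehicle, a log2 fold change of -0.53 ± 0.12 (edgeR adjusted p = 0.00309). On log2(FPKM + 1) the ABCC1 value was -0.072 (limma adjusted p = 0.705), its CPM per FPKM being 2.64 with LAA+ATRA and 3.62 with vehicle, and the GSTP1 call was lost on that scale too (limma adjusted p = 0.0632). Without 1 library, the LAA+ATRA call was lost for GSTP1 (vehicle replicate 1, edgeR adjusted p = 0.167, or LAA+ATRA replicate 1, 0.0523) and for MGST1 (vehicle replicate 1, 0.0982, vehicle replicate 2, 0.0905, or LAA+ATRA replicate 1, 0.183, log2 fold change -0.24).

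In the thioredoxin system, TXNIP rose and TXN fell with ATRA against vehicle and with LAA+ATRA against LAA. TXNIP binds and inhibits thioredoxin and limits glucose uptake. It had 163 and 129 CPM with LAA+ATRA, 228 and 233 with ATRA, 103 and 96.4 in LAA cells, and 136 and 134 in vehicle cells. The 2 ATRA libraries were highest, the 2 LAA libraries lowest, and the LAA+ATRA libraries lay on either side of vehicle. ATRA raised TXNIP by 0.77 ± 0.11 on the log2 scale (edgeR adjusted p = 0.000185), while LAA+ATRA against vehicle gave 0.11 ± 0.11 (0.468). With LAA+ATRA against LAA it was higher by 0.55 ± 0.12 (edgeR adjusted p = 0.00267), or 0.39 to 0.72 when 1 library was left out. The TXNIP interaction was -0.22 ± 0.16 (edgeR adjusted p = 0.986). TXN, the thioredoxin itself, had 175 and 210 CPM with ATRA against 248 and 270 with vehicle, a log2 fold change of -0.43 ± 0.12 (edgeR adjusted p = 0.0142). For LAA+ATRA against LAA it was -0.4 ± 0.12 (edgeR adjusted p = 0.0226), or -0.53 to -0.27 when 1 library was left out. This call against LAA was lost in 2 of 16 alternative runs. Of the reductases that recycle thioredoxin, the cytosolic TXNRD1 lay between 127 and 149 CPM in all libraries and passed no test. The mitochondrial TXNRD2 had 47.6 and 42 CPM with LAA+ATRA against 36.2 and 35.4 with vehicle, a log2 fold change of 0.32 ± 0.11 (edgeR adjusted p = 0.0323). SRXN1, the sulfiredoxin that repairs over-oxidized peroxiredoxins, lay between 25 and 32.3 CPM and passed no test. The TXN call was lost without vehicle replicate 2 (edgeR adjusted p = 0.115) or ATRA replicate 1 (0.109, log2 fold change -0.29), and the TXNRD2 call with DESeq2 (0.0669) and without any of 5 libraries (edgeR adjusted p from 0.0556 to 0.17).

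The peroxiredoxins, which reduce peroxides with electrons from thioredoxin or, for PRDX6, glutathione, held the largest fall of the 38 tested genes. PRDX1, the main cytosolic member, had 131 and 157 CPM with LAA+ATRA and 98.6 and 126 with ATRA, against 445 and 425 with LAA and 349 and 350 with vehicle. All 4 ATRA libraries lay far below the other 4, and the log2 fold change against vehicle was -1.28 ± 0.13 with LAA+ATRA and -1.64 ± 0.13 with ATRA (edgeR adjusted p = 8.3e-06 and 1.08e-06). PRDX1 lies at chr1:45511036-45523047 on the minus strand (GENCODE 29, GRCh38), and 379 of its exonic bases overlap MMACHC on the other strand, which had 4.63 to 10.8 CPM before TMM scaling. PRDX3, the mitochondrial member, was lower as well, by -0.57 ± 0.12 with LAA+ATRA and -0.42 ± 0.12 with ATRA (edgeR adjusted p = 0.00283 and 0.0172). PRDX5, which is found in mitochondria, peroxisomes and the cytosol, went the other way, with 295 and 173 CPM under LAA+ATRA, 176 and 199 under ATRA, 162 and 170 under LAA, and 126 and 115 under vehicle. Its log2 fold change was 0.96 ± 0.19 with LAA+ATRA and 0.64 ± 0.19 with ATRA (edgeR adjusted p = 0.00131 and 0.0155), and without LAA+ATRA replicate 1 the LAA+ATRA value was 0.53. PRDX6 was lower with ATRA alone, by -0.3 ± 0.095 (edgeR adjusted p = 0.0216), and PRDX2 and PRDX4 passed no test against vehicle.

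As a share of the summed FPKM of the 6 peroxiredoxins, PRDX1 held 14.5% and 21.2% with LAA+ATRA and 15% and 16.8% with ATRA, against 39.3% and 38.7% with LAA and 36.3% and 36.9% with vehicle. PRDX5 made up 37.8% and 27.9% with LAA+ATRA and 30.3% and 31.5% with ATRA, against 16.8% and 17.9% with LAA and 15.4% and 13.9% with vehicle. PRDX5 was above PRDX1 in all 4 ATRA libraries and below it in the other 4. The summed level was 1351 and 1132 FPKM with LAA+ATRA, 1004 and 1186 with ATRA, 1706 and 1649 in LAA cells, and 1484 and 1447 in vehicle cells. The ATRA calls of PRDX3, PRDX5 and PRDX6 were lost without vehicle replicate 1 (edgeR adjusted p = 0.103, 0.0515 and 0.0889) and without vehicle replicate 2 (0.0673, 0.104 and 0.151). Those of PRDX3 and PRDX6 were also lost without ATRA replicate 1 (0.123 and 0.093, log2 fold change of PRDX3 -0.26), and that of PRDX5 without ATRA replicate 2 (0.078) or with DESeq2 (0.0567).

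**Figure D3:**
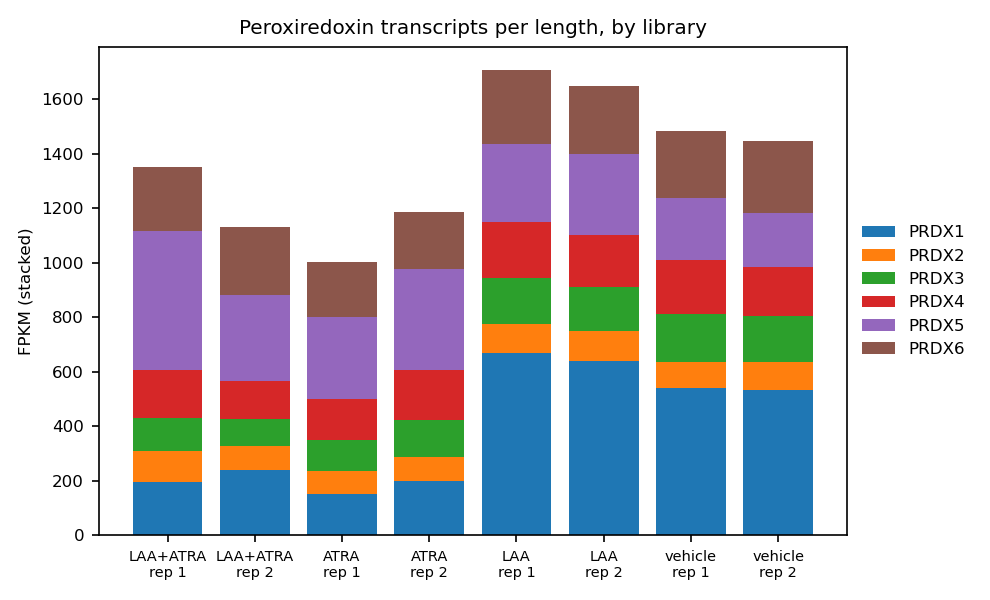
FPKM of the 6 peroxiredoxins (y axis, stacked from 0) in each of the 8 libraries (x axis, by group and replicate). The PRDX1 segment is 150 to 240 FPKM in the 4 libraries with ATRA and 533 to 670 FPKM in the 4 without it.

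The superoxide dismutases SOD1 and SOD2, which turn superoxide into hydrogen peroxide, both fell with ATRA. SOD2, the mitochondrial enzyme, had 59.3 and 55.6 CPM with LAA+ATRA and 51.6 and 53.3 with ATRA, against 118 and 113 with LAA and 139 and 123 with vehicle. The groups did not overlap, and the log2 fold change against vehicle was -1.19 ± 0.1 with LAA+ATRA and -1.32 ± 0.1 with ATRA (edgeR adjusted p = 2.75e-06 and 1.1e-06). SOD1, the cytosolic enzyme, had 200 and 207 CPM with LAA+ATRA and 147 and 177 with ATRA, against 316 and 310 with LAA and 258 and 266 with vehicle. It fell by 0.36 ± 0.1 with LAA+ATRA and by 0.69 ± 0.11 with ATRA on the log2 scale (edgeR adjusted p = 0.0134 and 0.000218). Catalase (CAT), which breaks down hydrogen peroxide, had 357 and 337 CPM with LAA+ATRA and 401 and 461 with ATRA, against 276 and 269 with LAA and 319 and 290 with vehicle. It was higher with ATRA by 0.5 ± 0.1 (edgeR adjusted p = 0.00183) and passed no test with LAA+ATRA against vehicle (0.155). For LAA+ATRA against LAA it was higher by 0.35 ± 0.1 (edgeR adjusted p = 0.0186), or 0.32 to 0.39 when 1 library was left out. This call against LAA was lost in 3 of 16 alternative runs. The LAA+ATRA call of SOD1 was lost without vehicle replicate 1 (edgeR adjusted p = 0.0664), vehicle replicate 2 (0.0898) or LAA+ATRA replicate 1 (0.0672).

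HMOX1, the heme oxygenase that is the classic target of both NRF2 and BACH1, had the largest rise of the 38 tested genes against vehicle, both with LAA+ATRA and with ATRA, from a low level. With LAA+ATRA against LAA its log2 fold change was 0.96, below that of SLC7A11 (1.14). On log2(FPKM + 1) that SLC7A11 value was 0.47 and its call was lost (limma adjusted p = 0.096). HMOX1 had 11.3 and 13 CPM with LAA+ATRA and 11.6 and 13.4 with ATRA, against 7.04 and 5.46 with LAA and 4.04 and 5.09 with vehicle. No ATRA library overlapped one without it, and the log2 fold change against vehicle was 1.41 ± 0.2 with LAA+ATRA and 1.46 ± 0.2 with ATRA (edgeR adjusted p = 0.000127 and 9.49e-05). BLVRA, the reductase that turns the HMOX1 product biliverdin into bilirubin, and BLVRB were higher with LAA+ATRA as well. BLVRA had 64.8 and 66.4 CPM with LAA+ATRA, 47.8 and 53.3 with ATRA, 49.6 and 47.1 in LAA cells, and 41 and 36.6 in vehicle cells. Its log2 fold change against vehicle was 0.76 ± 0.11 with LAA+ATRA and 0.38 ± 0.11 with ATRA (edgeR adjusted p = 0.000112 and 0.0112), and BLVRB gave 0.41 ± 0.13 with LAA+ATRA (0.0203).

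NQO1, a quinone reductase often used as a readout of NRF2, was lower with ATRA against vehicle and with LAA+ATRA against LAA. It had 45.1 and 48.4 CPM with LAA+ATRA and 36.6 and 43.8 with ATRA, against 60.8 and 62.8 in LAA cells and 52.7 and 50.6 in vehicle cells. The log2 fold change against vehicle was -0.14 ± 0.11 with LAA+ATRA (edgeR adjusted p = 0.316) and -0.36 ± 0.11 with ATRA (0.0196). For LAA+ATRA against LAA it was -0.4 ± 0.11 (edgeR adjusted p = 0.0124), or -0.45 to -0.34 when 1 library was left out. This call against LAA was lost in 3 of 16 alternative runs. The libraries with LAA lay above those without it in both backgrounds, by 0.22 ± 0.11 for LAA+ATRA against ATRA and 0.26 ± 0.11 for LAA against vehicle (edgeR adjusted p = 0.322 and 0.223). OSGIN1, an oxidative stress-induced growth inhibitor, had 10 and 10.5 CPM with LAA+ATRA, 8.9 and 6.86 with ATRA, 6.99 and 8.5 in LAA cells, and 5.43 and 6.2 in vehicle cells. Its vehicle libraries were lowest, and the log2 fold change against vehicle was 0.81 ± 0.2 with LAA+ATRA (edgeR adjusted p = 0.00498) and 0.43 ± 0.2 with ATRA (0.0987). EPHX1, the microsomal epoxide hydrolase, and AIFM2 passed no test against vehicle. Leaving out vehicle replicate 1 ended the call of OSGIN1 (edgeR adjusted p = 0.0507), of BLVRB (0.0875) and of NQO1 (0.124), and leaving out vehicle replicate 2 that of BLVRA with ATRA (0.132), BLVRB (0.116) and NQO1 (0.0684). The BLVRB call was also lost without LAA+ATRA replicate 1 (0.209, log2 fold change 0.21), the NQO1 call without ATRA replicate 1 (0.158, log2 fold change -0.23) and the ATRA call of BLVRA without ATRA replicate 2 (0.0718).

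Across the 4 libraries with ATRA and the 4 without, 16 of the 38 genes did not overlap. CAT, EPHX1, GPX1, HMOX1, MAFG, MGST2, PRDX5, SLC7A11 and SQSTM1 lay above, and GSS, MGST1, NQO1, PRDX1, PRDX3, SOD1 and SOD2 below. That was 42.1% of the 38 genes, against 43.4% of all genes.

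LAA alone called none of the 38 genes against vehicle with edgeR, where 0.0267% of all genes were called, 0.02% higher and 0.00667% lower. At an unadjusted p under 0.05 it had 12 of the 38, against 18.9% of all genes, DESeq2 called 2, and edgeR fitted to only the 4 libraries compared called 12 (10 higher and 2 lower, 31.6%), against 15.4% of all genes in that fit. The 2 LAA and 2 vehicle libraries did not overlap in 30 of the 38 genes (78.9%), against 56% of all genes. The 2 genes with DESeq2 were BACH1 and TXNIP, both lower. BACH1, the heme-regulated repressor of antioxidant response elements, had 37.3 and 30.7 CPM with LAA+ATRA against 43.1 and 44 with ATRA. It had 28.6 and 29.2 CPM with LAA against 42.8 and 40.7 with vehicle. All LAA libraries lay below those without LAA in either background, and the log2 fold change was -0.36 ± 0.11 for LAA+ATRA against ATRA (edgeR adjusted p = 0.129) and -0.53 ± 0.12 for LAA against vehicle (0.0569, DESeq2 0.0096). Without LAA+ATRA replicate 2 the value for LAA+ATRA against ATRA was -0.22. LAA+ATRA libraries lay above LAA libraries, with a log2 fold change of 0.23 ± 0.12 (edgeR adjusted p = 0.144), or 0.37 without LAA+ATRA replicate 2 (0.0388).

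LAA+ATRA against ATRA called 1 of the 38 genes, TXNIP, against 1.01% of all genes, 0.493% higher and 0.52% lower, with 12 of the 38 at an unadjusted p under 0.05 against 18.6% of all genes. TXNIP had 163 and 129 CPM with LAA+ATRA against 228 and 233 with ATRA, a log2 fold change of -0.66 ± 0.11 (edgeR adjusted p = 0.0333). DESeq2 also called GPX4 and SOD1 higher and CAT lower (adjusted p = 0.00089, 0.0362 and 0.0249). The libraries did not overlap in 19 of the 38 genes (50%), against 44.1% of all genes. With LAA against vehicle it had 103 and 96.4 against 136 and 134 CPM, a log2 fold change of -0.44 ± 0.12 (0.0837, DESeq2 0.00605). The call with ATRA was lost without any 1 of the 4 vehicle and LAA libraries (edgeR adjusted p from 0.072 to 0.0758) or without LAA+ATRA replicate 2 (0.0594, log2 fold change -0.5), and in a fit to only the 4 libraries compared (0.135) or with limma on log2(FPKM + 1) (0.0837). With the replicate number as a block it was also lost (0.0536).

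LAA against vehicle and LAA+ATRA against ATRA share no library, so the LAA effect could be read in 2 separate pairs of groups. The same sign was found for 30 of the 38 genes (78.9%), against 68.5% of all genes. Across genes, which are not independent replicates, the 2 sets of log2 fold changes had a Pearson correlation of 0.75 and a Spearman correlation of 0.68 over the 38 genes, against 0.18 and 0.39 over all genes. In 10 genes the LAA libraries lay above those without LAA in both backgrounds and in 5 they lay below, 39.5% of the 38 against 24% of all genes. The 38 genes differed less between replicates than all genes did, and the part of this in the shares and correlations was not tested. The effect averaged over both backgrounds, a comparison added after the data were seen, called 7 genes (18.4%, against 12.5% of all genes), of which 5 were higher against 6.49% of all genes and 2 lower against 5.98%.

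The 2 lower genes were TXNIP, at -0.55 ± 0.081, and BACH1, at -0.44 ± 0.082 on the log2 scale (edgeR adjusted p = 0.00516 and 0.009). The 5 higher genes were GPX4 (0.38 ± 0.081), BLVRA (0.35 ± 0.074), PRDX1 (0.34 ± 0.089), SOD1 (0.29 ± 0.074) and GSTP1 (0.24 ± 0.069), with edgeR adjusted p from 0.0149 to 0.0437. Their log2 fold changes for LAA+ATRA against ATRA and for LAA against vehicle were 0.49 and 0.27 for GPX4, 0.37 and 0.32 for BLVRA, 0.36 and 0.31 for PRDX1, 0.33 and 0.26 for SOD1, and 0.25 and 0.22 for GSTP1. None of these 5 was called in either single comparison by edgeR fitted to all 8 libraries. DESeq2 called GPX4 and SOD1 in LAA+ATRA against ATRA and none of the 5 in LAA against vehicle. With edgeR fitted to only the 4 libraries compared, all 5 were called in LAA against vehicle (adjusted p from 0.00478 to 0.0301). That fit called none of them in LAA+ATRA against ATRA. For LAA+ATRA against ATRA, leaving out 1 library gave 0.31 (without LAA+ATRA replicate 1) to 0.65 for GPX4. It gave 0.19 and 0.55 for PRDX1 and 0.2 and 0.47 for SOD1 without ATRA replicate 1 and without ATRA replicate 2. The averaged call of GSTP1 was lost with the replicate number as a block (edgeR adjusted p = 0.0713). PRDX1 and SOD1 were lower with ATRA and higher in the averaged LAA effect, while GPX4 and GSTP1 overlapped between ATRA and vehicle. HMOX1 was 0.45 ± 0.21 with LAA against vehicle (edgeR adjusted p = 0.258), or 0.26 without LAA replicate 1, and overlapped between LAA+ATRA and ATRA. On FPKM the averaged effect called 1 gene, TXNIP, with either pseudocount and none without a filter on low values, and leaving out 1 library gave from 1 (without vehicle replicate 1) to 11 (without LAA+ATRA replicate 2). The number was 2 without vehicle replicate 2, LAA replicate 1 or LAA replicate 2.

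**Figure D4:**
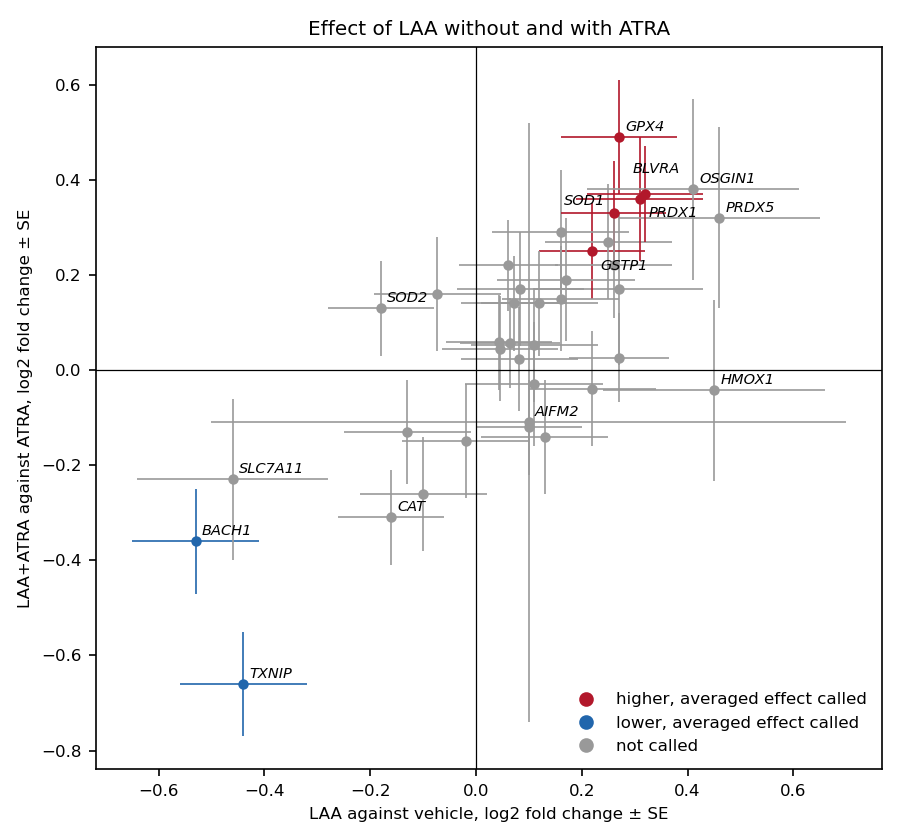
Log2 fold change of LAA against vehicle (x axis) and of LAA+ATRA against ATRA (y axis) for the 38 tested genes, with standard errors. Red and blue points passed an adjusted p of 0.05 in the effect averaged over both backgrounds. TXNIP and BACH1 lie at lower left, and GPX4, BLVRA, PRDX1, SOD1 and GSTP1 at upper right.

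The interaction, the effect of LAA+ATRA minus those of ATRA and of LAA on the log2 scale, called none of the 38 genes with edgeR or DESeq2, where 0.00667% of all genes were called by edgeR. None of the 38 had an unadjusted p under 0.05, against 4.98% of all genes. The values ran from -0.5 ± 0.28 for HMOX1 to 0.31 ± 0.15 for SOD2 (edgeR adjusted p = 0.986 for both). With 2 libraries a group, a p that misses the threshold does not show that the effects added up.

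A further 65 genes of glutathione, NADPH, peroxide and NRF2 biology were read beside the 40. This list was chosen with earlier results of these data known and was not tested as a set. Its shares beside those of all genes are a description. They stood on 66 rows, of which 54 were tested, and with ATRA against vehicle 23 were higher and 13 lower (66.7%, against 42.9% of all genes, of which 21.9% were higher and 21% lower). Their median log2 fold change was 0.2, against -0.0036 over all genes. With LAA+ATRA against vehicle 23 were higher and 8 lower (57.4%, against 44.7% of all genes), and none was called by edgeR with LAA against vehicle, with LAA+ATRA against ATRA or in the interaction. The largest rises with ATRA were AKR1C3, PGD and MAFF. AKR1C3, an aldo-keto reductase, had 8.94 and 7.14 CPM with LAA+ATRA and 6.02 and 7.93 with ATRA, against 0.893 and 1.05 with LAA and 0.24 and 0.533 with vehicle, a log2 fold change of 4.16 ± 0.37 for ATRA against vehicle (edgeR adjusted p = 3.05e-06). AKR1C1 and AKR1C2, its near-identical relatives, had 1 count together, and reads shared within the family make the split uncertain. PGD, which makes NADPH in the pentose phosphate pathway, had 1171 and 1259 CPM with LAA+ATRA and 1375 and 1447 with ATRA, against 372 and 376 with LAA and 308 and 320 with vehicle, a log2 fold change of 2.17 ± 0.1 with ATRA (edgeR adjusted p = 8.41e-09). MAFF, another small MAF protein, rose by 1.89 ± 0.22 with ATRA (edgeR adjusted p = 2.58e-05). The largest falls with ATRA were TXNRD3 (-0.88 ± 0.15), GLO1 (-0.82 ± 0.13), which detoxifies methylglyoxal with glutathione, and AKR1A1 (-0.77 ± 0.12), an aldehyde reductase, with edgeR adjusted p of 0.000532, 0.000272 and 0.000239.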

How the data were processed

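RNA of U-937 cells was sequenced in 8 libraries, 2 for each of LAA+ATRA, ATRA, LAA and vehicle. Per the labels' protocols, mRNA was enriched with poly-T beads before library construction with an NEBNext Ultra II kit. The estimated counts, read counts per Ensembl gene with decimals and not scaled between libraries, were made by the authors with Salmon 1.8.0, per the submitters' processing notes, which also name DESeq2 1.36.0 and GRCh38/hg38. The FPKM values, per kilobase and per library size with a gene length that differs between libraries, were deposited by the authors. For annotation release, strand setting and index the sources used here give nothing, so reads from genes that overlap on opposite strands cannot be told apart. Positions came from GENCODE 29 on GRCh38, chosen here, and promoter sequences from RefSeq.

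Estimated counts were rounded, which changed 16.5% of values. The filterByExpr function of edgeR 4.0.16 (R 4.3.3) kept 14995 genes, and libraries were scaled by TMM. The edgeR quasi-likelihood model had 4 group means over all 8 libraries, with residual df 4, prior df 8.2 and common dispersion 0.0124. P-values were two-sided and adjusted by the Benjamini-Hochberg method over all genes tested, with calls under 0.05. The interaction is the LAA effect in ATRA cells minus that in vehicle cells. The members and lists were chosen with earlier results of these data known. Members were named by rule if called in LAA against vehicle, LAA+ATRA against ATRA or the interaction. So were the 6 largest called rises and falls of ATRA and of LAA+ATRA against vehicle, NFE2L2 and KEAP1. Of the further pathway genes, the 3 largest called rises and falls with ATRA were named. Values in every library are not given for KEAP1, PRDX3, ABCC1, TXN, MAFF, TXNRD3, GLO1 and AKR1A1. Other members named with values were chosen after their values were seen. ABCC1 was read on both scales for the same reason.

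Alternatives were DESeq2 1.42.0, RLE size factors, omission of the low-count filter, a block for replicate number, a fit to the libraries compared, and omission of each library in turn, with a lone library taken to vary as other groups do. FPKM values were tested with limma 3.58.1 after adding 1 (with and without a minimum group mean of 1 FPKM) or 0.1 before the log2. The floor of 3 counts and the standard errors cover these libraries only. The script was tested on simulated counts.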

Additional observations from a re-analysis of the deposited data

How the results depend on the processing

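Of the 20 members called with ATRA against vehicle, 12 kept their call under every alternative run (HMOX1, SQSTM1, MAFG, MGST2, TXNIP, GPX1, CAT, PRDX1, SOD2, SOD1, MGST1 and GSS). The same held for 10 of 20 with LAA+ATRA against vehicle, 10 of 18 with LAA+ATRA against LAA, 0 of 1 with LAA+ATRA against ATRA and 0 of 7 for the averaged LAA effect. Called members did not reverse in any alternative. The cause of the changes below was not tested. Replicate numbers did not pair the libraries (correlations of their deviations from -0.073 to 0.077 over the 6 pairs of groups). With the replicate block, no member was called in LAA+ATRA against ATRA (0), the averaged call of GSTP1 was lost (edgeR adjusted p = 0.0713), and 30 genes there and 2 with LAA against vehicle were called. DESeq2 called 2 members and 681 genes with LAA against vehicle, 4 members and 672 genes with LAA+ATRA against ATRA, and 13 genes for the interaction. Without the low-count filter these were 3 members and 828 genes, 2 members and 903 genes, and 136 genes. With only the libraries compared they were 12 members and 2187 genes with LAA against vehicle, and 0 members and 15 genes with LAA+ATRA against ATRA.

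On log2(FPKM + 1), 2 genes were called with LAA against vehicle, 0 members and 6 genes with LAA+ATRA against ATRA, 2 genes for the interaction, and 1 member and 517 genes for the averaged effect. On log2(FPKM + 0.1), 0 members and 4 genes, 3 genes, and 1 member and 503 genes were called in the last 3 of these. On log2(FPKM + 1) without a filter, 4163 genes were called with ATRA against vehicle, 7 with LAA against vehicle, 13 members and 4334 genes with LAA+ATRA against vehicle, 0 members and 27 genes with LAA+ATRA against ATRA, 3352 genes with LAA+ATRA against LAA, 10 for the interaction, and 0 members and 34 genes for the averaged effect.

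When 1 library was left out, members called ranged from 13 to 21 with ATRA, 0 to 3 with LAA and 13 to 21 with LAA+ATRA, each against vehicle. They ranged from 0 to 2 with LAA+ATRA against ATRA and from 1 to 11 for the averaged effect. Genes called ranged from 0 to 469 with LAA against vehicle, 6 to 172 with LAA+ATRA against ATRA, 1 to 15 for the interaction and 109 to 2144 for the averaged effect. Reversed values were all of uncalled results. ABCC1 with ATRA against vehicle was 0.072 on log2(FPKM + 1), with or without the filter, and 0.076 on log2(FPKM + 0.1), against -0.27. KEAP1 ranged from -0.021 (without LAA replicate 2) to 0.18 with LAA against vehicle, and from -0.075 to 0.11 with LAA+ATRA against ATRA, where 2 omissions reversed it (-0.075 and -0.0015). NFE2L2 ranged from -0.03 to 0.27 with LAA+ATRA against vehicle and from -0.29 to 0.0047 with LAA+ATRA against ATRA. TXNIP ranged from -0.068 to 0.27 with LAA+ATRA against vehicle, and PRDX5 from -0.12 to 0.66 with LAA+ATRA against ATRA, the low values of both without LAA+ATRA replicate 1. With 2 libraries a group, effects near the spread between libraries were not detectable, and ME1 and GPX7 had too few counts to test.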

Other observations

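Some tested genes near PRDX1 on chromosome 1 were also lower with ATRA against vehicle. This locus was chosen after the fall of PRDX1 had been seen, and PRDX1 is in the count, so the count is a description and no support for a shared change. Of 7 tested genes within 100 kb of PRDX1, itself included, 4 were lower and 0 were higher, where 21% of all genes were lower. MMACHC, whose product processes vitamin B12 and which overlaps PRDX1 on the opposite strand, had a log2 fold change of -0.80 ± 0.21 (edgeR adjusted p = 0.0083). The 2 genes share 379 exonic bases and the strand setting is not known. Reads there cannot be told apart, so the MMACHC value is not independent of PRDX1. AKR1A1, an aldehyde reductase that starts 27496 bases from PRDX1, had -0.77 ± 0.12 (0.000239), and NASP, a histone chaperone, had -0.44 ± 0.10 (0.00471). TESK2, CCDC163 and CCDC17 passed no test, at -0.38 ± 0.21, 0.32 ± 0.28 and 0.05 ± 0.84. PRDX1 itself had -1.64 ± 0.13.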
